A study of Rattus norvegicus with 6 samples.

Results

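The Gadd45 family and 6 further genes that p53 is known to switch on were examined in rat muscle under acute osteofascial compartment syndrome (ACS), in which pressure inside a closed muscle compartment limits blood flow. The members were the rows of the deposited table whose gene name was Gadd45a, Gadd45b, Gadd45g, Mdm2, Cdkn1a, Ccng1, Sesn1, Phlda3 or Plk2. All 9 names matched 1 row each, out of 30957 rows. The muscle was the flexor digitorum longus, which bends the toes, of wild-type (WT) Sprague-Dawley rats. Control muscle at 0 h (3 libraries) was compared with muscle at 18 h of ACS (3 libraries), for which a low-elastic band had been tied around the knee. There was no control at 18 h, so effects of ACS and of the time that passed cannot be told apart. The treatment field reads ACS for both groups, and the titles separate them. The labels give neither age nor sex. They also do not say if each library is a different animal, and the p-values therefore cover the spread among these 6 samples only, which may be technical.

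p53 is a transcription factor that is stabilised in stressed or DNA-damaged cells. It switches on genes that stop the cell cycle, adjust metabolism or start cell death, and Mdm2, one of its own targets, marks it for destruction. The Gadd45 proteins are small acidic proteins that bind cell cycle proteins and Map3k4, a kinase upstream of p38 and JNK, and their genes answer both to p53 and to p53-independent stress signals. In mouse muscle, Gadd45a is known as a gene that denervation raises through Hdac4 and fasting through Atf4, and Cdkn1a is switched on during muscle differentiation without p53.

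Library totals lay between 14340865 and 21003928 counts. ACS replicate 1 stood apart, with 43.4% of its counts on the mitochondrial chromosome against 4.82 to 8.604% in the other 5 libraries. The descriptions of control replicate 3 and ACS replicate 3 carry the letters ji, whose meaning was not stated. Levels are given as CPM, read counts scaled to library size with TMM normalisation. The summed level of 10 muscle fibre markers was 136084 to 159065 CPM in control libraries and 88301, 125694 and 211162 CPM in ACS libraries 1, 2 and 3. The quasi-likelihood test of edgeR, run on 12873 genes, called 442 higher and 91 lower (adjusted p under 0.05). Scaling by library totals alone gave 345 and 228 and moved the median log2 fold change of all genes from -0.011 to -0.32.

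The promoters of the 4 members that passed the test are shown, since these are the genes that rose. Each run is the 250 bases before the RefSeq start site on build GRCr8, read 5′ to 3′ on the gene's strand. The windows were Gadd45a at chr4:97486800-97487049 (minus strand), Gadd45b at chr7:9430719-9430968 (minus strand), Gadd45g at chr17:13530352-13530601 (minus strand) and Cdkn1a at chr20:7150682-7150931 (plus strand). Capitals mark matches on either strand to the TATA box (TATAAA), to the CCAAT box, to the GC box (GGGCGG) or to the p53 half-site, a motif given here by name.
Gadd45a: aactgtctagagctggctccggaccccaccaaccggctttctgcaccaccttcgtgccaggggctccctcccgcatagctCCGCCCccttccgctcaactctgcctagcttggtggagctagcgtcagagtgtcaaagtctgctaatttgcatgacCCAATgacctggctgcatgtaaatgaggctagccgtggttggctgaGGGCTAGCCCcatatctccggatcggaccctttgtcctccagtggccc
Gadd45b: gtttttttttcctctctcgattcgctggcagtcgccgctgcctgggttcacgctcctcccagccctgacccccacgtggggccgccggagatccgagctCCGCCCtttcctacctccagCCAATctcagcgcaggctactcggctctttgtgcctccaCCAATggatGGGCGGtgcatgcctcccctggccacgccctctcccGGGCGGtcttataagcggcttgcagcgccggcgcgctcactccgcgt
Gadd45g: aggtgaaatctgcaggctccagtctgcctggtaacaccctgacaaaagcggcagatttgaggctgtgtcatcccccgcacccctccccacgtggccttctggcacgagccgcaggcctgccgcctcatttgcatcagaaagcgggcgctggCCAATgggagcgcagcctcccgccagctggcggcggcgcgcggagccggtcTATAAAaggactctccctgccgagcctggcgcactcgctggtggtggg
Cdkn1a: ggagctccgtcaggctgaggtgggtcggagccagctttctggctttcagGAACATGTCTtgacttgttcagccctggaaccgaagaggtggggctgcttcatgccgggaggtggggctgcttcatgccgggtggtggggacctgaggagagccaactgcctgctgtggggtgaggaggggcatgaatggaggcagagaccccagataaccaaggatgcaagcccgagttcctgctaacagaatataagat

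All 9 members had an entry in the RefSeq table. In windows that ran on for 50 bases past the start, CCAAT was present in 7 of 9 members, against 37.5% of the 33469 promoters in the table. The GC box was present in 7 of 9, against 33.1% of all promoters. The p53 half-site was present in 4 of 9 (Gadd45a, Cdkn1a, Ccng1 and Sesn1), against 7.98% of all promoters. Of these, Gadd45a and Cdkn1a rose in ACS muscle, while Ccng1 and Sesn1 did not pass the test. TATAAA was found in Gadd45g alone (14.2% of all promoters) and the cAMP response element TGACGTCA in Plk2 alone (1.83%). The AP-1 motif TGANTCA (7.33%) and the NF-kB motif, also given by name (7.51%), had no match in the 9 windows. A match describes letters and is not a binding site, and the start site used in muscle may differ from that in the table.

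All 3 Gadd45 genes and Cdkn1a rose in ACS muscle, and none of the 9 members was called lower. Mdm2, Ccng1, Sesn1, Phlda3 and Plk2 did not pass the threshold. All 9 members passed the filter on low counts, with at least 83 counts in every library. The 4 of 9 called higher compare with 3.43% of all tested genes, and the 0 of 9 called lower with 0.707%. In 5 of 9 (the same 4 and Plk2) every ACS library was above every control library, against 16.7% of all tested genes, and in 0 of 9 every ACS library was below, against 14.8%. The median log2 fold change was 1.43 over the 9 members and -0.011 over all tested genes. DESeq2, limma-voom and limma on FPKM also called 0 members lower, and 0 of 9 had a negative fold change at an unadjusted p under 0.05, against 7.98% of all tested genes. Exact two-sided permutation tests gave p = 0.1 for each of the 5 separated members, the smallest value that 3 libraries against 3 allow. In whole muscle, a change in the number of cells of a type and a change in RNA per cell cannot be told apart.

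**Figure D1:**
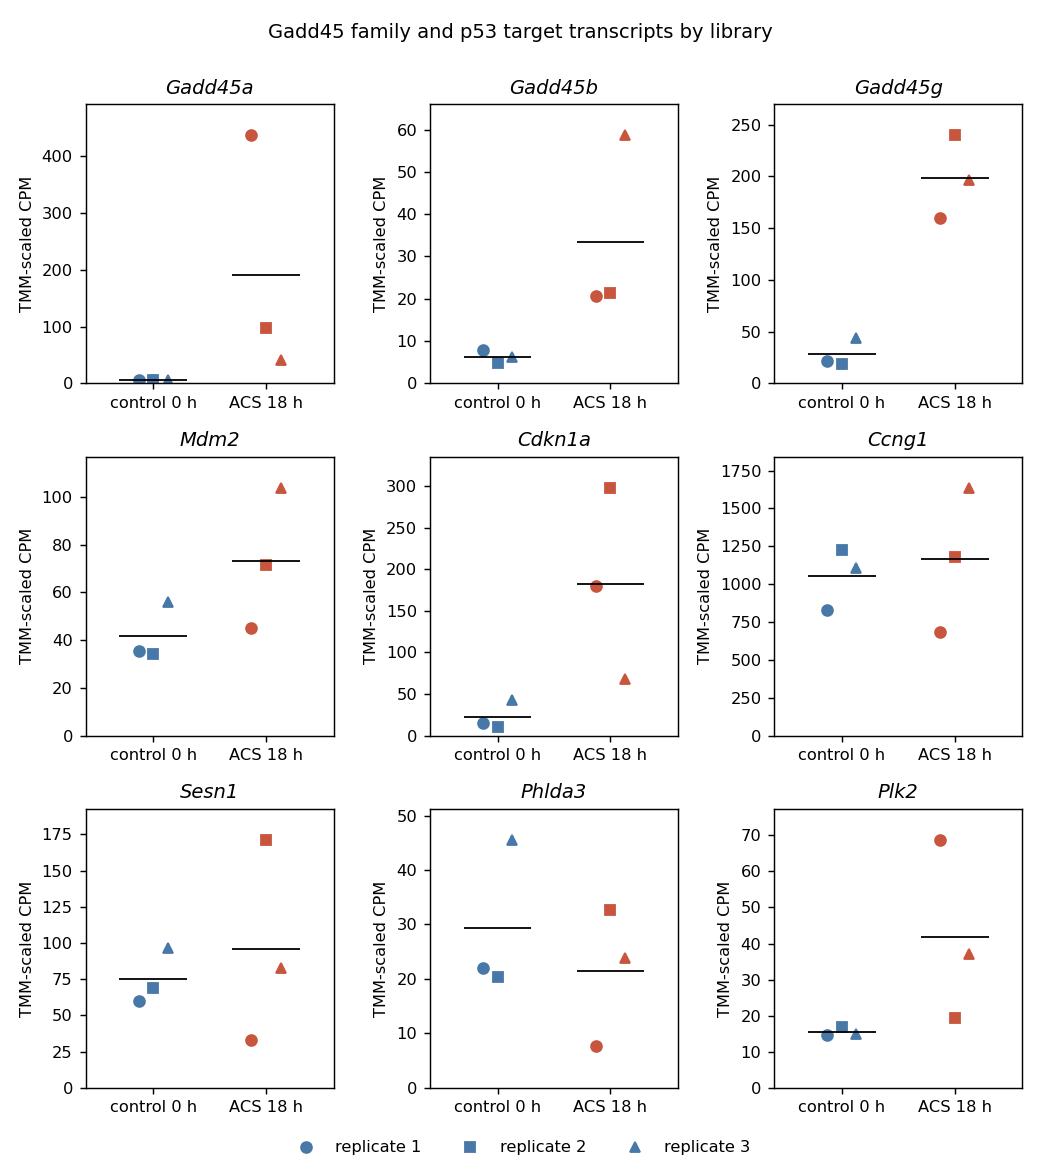
Level of each member in every library, as TMM-scaled CPM on a linear axis from 0; points are libraries, their shapes are replicate numbers and horizontal lines are means of 3. The groups do not overlap for Gadd45a, Gadd45b, Gadd45g, Cdkn1a and Plk2, and they overlap for the other 4 genes.

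**Figure D2:**
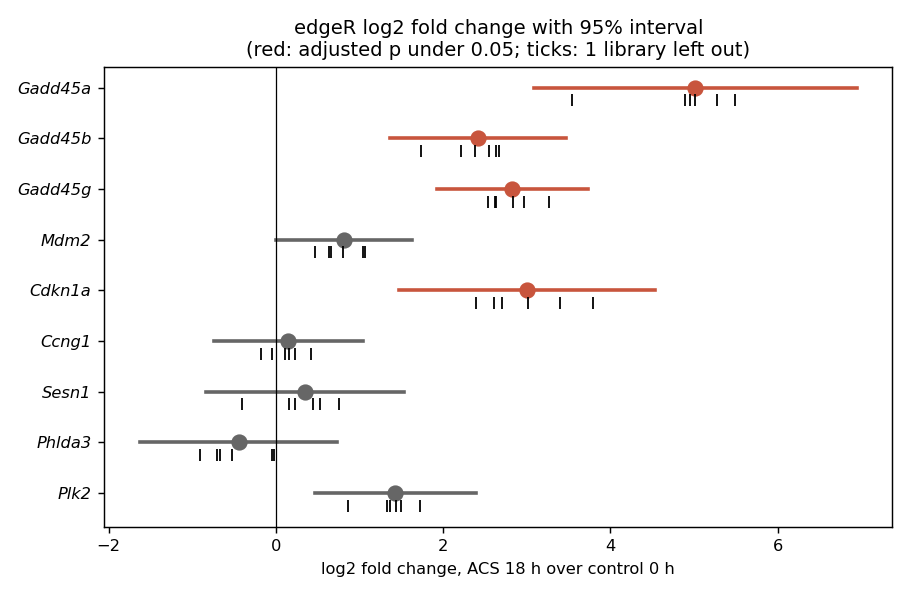
edgeR log2 fold change of ACS over control (points) with its 95% interval (lines) for each member; red marks an adjusted p under 0.05 and black ticks are values with 1 of the 6 libraries left out. All ticks of the Gadd45 genes and Cdkn1a lie above 0, and those of Ccng1 and Sesn1 lie on both sides of 0.

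On build Rnor 6.0 Gadd45a (ENSRNOG00000005615) lies at chr4:97782512-97784842, Gadd45b (ENSRNOG00000019822) lies at chr7:11646269-11648322 and Gadd45g (ENSRNOG00000013090) lies at chr17:13391467-13393243, all on the minus strand. Gadd45a, the family member best known from growth arrest after DNA damage, held 6.49, 5.90 and 5.37 CPM in control libraries 1, 2 and 3. It held 437, 97.7 and 40.4 CPM in ACS libraries 1, 2 and 3. The controls lay within 1.21-fold of each other, whereas the ACS libraries spanned 10.8-fold, and the lowest of them was 6.23 times the highest control. The log2 fold change was 5.02 (SE 0.847, 95% interval 3.09 to 6.94, n = 3 each, edgeR adjusted p = 0.0241), a 32.3-fold difference and the largest of the 9. Leaving out ACS replicates 1, 2 and 3 gave 3.54, 5.28 and 5.49 (edgeR adjusted p = 0.00292, 0.0385 and 0.00480), lowest without ACS replicate 1. Without control replicates 1, 2 and 3 it was 5.02, 4.95 and 4.89 but did not pass (edgeR adjusted p = 0.154, 0.139 and 0.120), and in these 3 fits no gene of the table passed. Within the ji pair the ratio of ACS to control was 7.53, and among the other 4 libraries the ratio of means was 43.2.

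Gadd45b, known to bind and restrain Map2k7, a kinase upstream of JNK, held 7.75, 4.84 and 6.28 CPM in control and 20.6, 21.3 and 58.7 CPM in ACS libraries. ACS replicate 3 was the high one, while replicates 1 and 2 lay close together. The log2 fold change was 2.41 (SE 0.461, interval 1.36 to 3.46, n = 3 each, edgeR adjusted p = 0.0319). Leaving out ACS replicates 1, 2 and 3 gave 2.66, 2.63 and 1.73, each past the threshold (edgeR adjusted p = 0.00948, 0.0463 and 0.0156). Without control replicates 1, 2 and 3 it did not (edgeR adjusted p = 0.164, 0.169 and 0.139). The ratio was 9.34 within the ji pair and 3.33 among the other 4 libraries, and without the ji pair the log2 fold change was 1.73 and the call was lost (edgeR adjusted p = 0.0831).

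Gadd45g, the member linked to cytokine signals and differentiation, held 21.9, 18.1 and 43.9 CPM in control and 159.8, 239.6 and 197 CPM in ACS libraries. Its ACS libraries lay within 1.499-fold of each other, and control replicate 3 was 2.20 times the mean of the other controls. The log2 fold change was 2.83 (SE 0.396, interval 1.93 to 3.73, n = 3 each, edgeR adjusted p = 0.0152), and 2.96, 2.63 and 2.83 without ACS replicates 1, 2 and 3. Without control replicates 1, 2 and 3 it did not pass (edgeR adjusted p = 0.134, 0.116 and 0.0521). The ratio was 4.47 within the ji pair and 9.98 among the other 4 libraries.

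Per gene length, in the deposited FPKM, Gadd45g was the most abundant of the family in 5 libraries and Gadd45a in ACS replicate 1. Summed over the 3 genes, FPKM was 34.0, 28.1 and 57.0 in control and 384, 316 and 244 in ACS libraries. Gadd45g made up 64.2%, 66.3% and 81.5% of this sum in controls and 28.5%, 69.8% and 69.9% in ACS libraries. Gadd45a made up 16.7%, 18.9% and 8.75% in controls and 68.4%, 24.99% and 12.6% in ACS libraries. Its share was thus above the controls in ACS replicates 1 and 2 and within their range in replicate 3. The ratio of Gadd45a to Gadd45b FPKM was 0.876, 1.28 and 0.896 in controls and 22.2, 4.80 and 0.722 in ACS libraries, and the groups overlapped (exact permutation p = 0.4, Benjamini-Hochberg adjusted p = 0.4 over 6 ratios). The ratios of Gadd45g to Gadd45a and to Gadd45b overlapped between the groups as well (exact permutation p = 0.4 for both), so a different rise among the 3 genes was not shown.

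**Figure D3:**
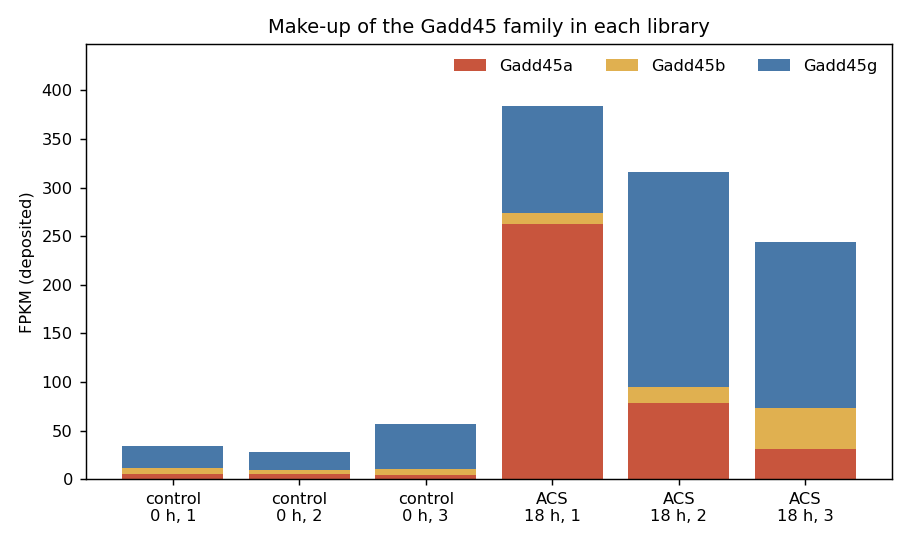
Deposited FPKM of the 3 Gadd45 genes stacked in each library (linear axis from 0; each bar is 1 library, so there are no error bars). Gadd45g is the largest part of 5 bars, and Gadd45a, at 68.4%, of the bar of ACS replicate 1.

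Cdkn1a (ENSRNOG00000000521, chr20:6351458-6358864 on the plus strand) encodes p21, which blocks cyclin-dependent kinases and halts the cell cycle. It held 14.6, 10.7 and 42.4 CPM in control and 179.8, 298 and 67.4 CPM in ACS libraries. Control replicate 3 was 3.34 times the mean of the other controls and ACS replicate 3 was the lowest ACS library, so the gap between the groups, 1.59-fold, lay between the ji libraries. The log2 fold change was 3.01 (SE 0.672, interval 1.48 to 4.54, n = 3 each, edgeR adjusted p = 0.0470), close to the threshold. Leaving out ACS replicates 1, 2 and 3 gave 3.02, 2.39 and 3.40, and the call was lost without replicate 2 (edgeR adjusted p = 0.0999), as it was when scaled by library totals (0.0515). Without control replicates 1, 2 and 3 it was 2.70, 2.60 and 3.79 and did not pass (edgeR adjusted p = 0.202, 0.191 and 0.0791). Among the 4 libraries without ji the ratio of means was 18.8, and edgeR on them gave 4.23 (adjusted p = 0.0268), whereas a term for ji over all 6 gave 3.17 (edgeR adjusted p = 0.0849). Cdkn1b, which encodes the related inhibitor p27, measured 38.6 ± 6.31 and 36.9 ± 9.55 CPM (SD, n = 3 each) and did not pass (edgeR adjusted p = 0.905, log2 interval -0.70 to 0.57). The ratio of Cdkn1a to Cdkn1b FPKM was 0.282, 0.194 and 0.605 in controls and 2.57, 5.08 and 1.65 in ACS libraries, without overlap (exact permutation p = 0.1, Benjamini-Hochberg adjusted p = 0.3 over 6 ratios).

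The other members lie at chr7:60719066-60743328 (Mdm2), chr10:25903911-25910325 (Ccng1), chr20:46667121-46758305 (Sesn1), chr13:52588917-52592001 (Phlda3) and chr2:41911131-41916901 (Plk2) on build Rnor 6.0. Mdm2, the ubiquitin ligase that holds p53 in check, held 35.4, 34.3 and 55.8 CPM in control and 44.9, 71.3 and 104 CPM in ACS libraries. The groups overlapped, since ACS replicate 1 lay below control replicate 3. The log2 fold change was 0.81 (SE 0.357, interval -0.0018 to 1.62, edgeR adjusted p = 0.213), and 1.07 without ACS replicate 1 (edgeR adjusted p = 0.0629). The ratio of Cdkn1a to Mdm2 FPKM was 0.652, 0.494 and 1.199 in controls and 6.32, 6.60 and 1.02 in ACS libraries, with overlap (exact permutation p = 0.2, Benjamini-Hochberg adjusted p = 0.4 over 6 ratios).

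Plk2, a stress-inducible polo-like kinase, held 14.5, 16.9 and 14.99 CPM in control and 68.7, 19.4 and 37.0 CPM in ACS libraries. Every ACS library lay above the controls, replicate 2 by the least. The log2 fold change of 1.43 (SE 0.425, interval 0.46 to 2.40) did not pass (edgeR adjusted p = 0.0885), but passed without ACS replicate 2 (1.73, edgeR adjusted p = 0.0482) and with DESeq2 (adjusted p = 0.0236).

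Ccng1, which encodes cyclin G1, held 827, 1227 and 1109.7 CPM in control and 687, 1180.4 and 1637 CPM in ACS libraries, and the groups overlapped. Its log2 fold change was 0.15 (SE 0.390, interval -0.74 to 1.04, edgeR adjusted p = 0.845), and -0.13 when scaled by library totals. Sesn1, a sestrin that restrains mTORC1 signalling, held 60.0, 68.6 and 96.8 CPM in control and 33.1, 171 and 82.5 CPM in ACS libraries. ACS replicate 1 was the lowest and ACS replicate 2 the highest of all 6. Its log2 fold change was 0.35 (SE 0.518, interval -0.83 to 1.53, edgeR adjusted p = 0.709), and -0.41 without ACS replicate 2. Phlda3, known to restrain Akt at the membrane, held 22.0, 20.4 and 45.5 CPM in control and 7.77, 32.6 and 23.9 CPM in ACS libraries, again with overlap. Its log2 fold change was -0.45 (SE 0.518, interval -1.63 to 0.73, edgeR adjusted p = 0.629), and -0.019 without control replicate 3. The width of these intervals means that an equal level is not shown for the 3 genes.

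By FPKM, Ccng1 ranked first and Gadd45g second of the 9 in every control library and in ACS replicates 2 and 3. In ACS replicate 1 the order was Gadd45a at 263, Ccng1 at 126 and Gadd45g at 109 FPKM. In control muscle Ccng1 measured 291 ± 61.8 FPKM and Gadd45g 29.0 ± 15.2 FPKM (SD, n = 3). Phlda3 (23.3 ± 11.8 FPKM) and Sesn1 (20.4 ± 5.83 FPKM) followed and did not differ beyond their spread, and neither did Mdm2 (11.1 ± 3.53 FPKM) and Cdkn1a (9.54 ± 7.54 FPKM). The mean of Cdkn1a rested on control replicate 3, at 18.2 FPKM against 5.93 and 4.48 in controls 1 and 2, where it lay among Plk2, Gadd45b and Gadd45a. These 3 had the lowest means, at 6.23 ± 0.558, 5.41 ± 1.17 and 5.33 ± 0.350 FPKM in that order, and changed places between libraries. ACS replicate 1 was the lowest ACS library by CPM for 6 of 9 members, yet the highest for Gadd45a and Plk2. ACS replicate 2 was the highest for Gadd45g, Cdkn1a, Sesn1 and Phlda3, and ACS replicate 3 for Gadd45b, Mdm2 and Ccng1. Control replicate 3 was the highest control for 5 of 9 (Gadd45g, Mdm2, Cdkn1a, Sesn1 and Phlda3).

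Of 16 tested genes in the list of p53 regulators and relatives, 1 rose and 0 fell, against 3.43% and 0.707% of all tested genes. A negative fold change at an unadjusted p under 0.05 was seen for 2, against 7.98% of all tested genes. The one that rose was Tp53bp2, whose product ASPP2 steers p53 towards cell death genes, from 22.9 ± 3.44 to 78.8 ± 37.8 CPM (SD, n = 3 each, log2 fold change 1.78, edgeR adjusted p = 0.0375). It did not pass without ACS replicate 2 (edgeR adjusted p = 0.0573), with a term for ji (0.0650), without the ji libraries (0.0628) or without any 1 control (0.133 to 0.193). Atm, the kinase that signals DNA breaks to p53, measured 27.5 ± 3.01 and 15.6 ± 1.13 CPM (log2 fold change -0.81, edgeR adjusted p = 0.0837). The p53 relative Tp63 measured 11.5 ± 1.45 and 5.49 ± 1.12 CPM (-1.06, edgeR adjusted p = 0.0796). Both had every ACS library below every control and were called lower by DESeq2 (adjusted p = 0.0239 and 0.0167) but not by limma-voom or limma on FPKM. Usp7, which removes ubiquitin from Mdm2 and p53, measured 133 ± 9.26 and 182 ± 17.2 CPM (edgeR adjusted p = 0.292), and the Mdm2 partner Mdm4 48.9 ± 9.75 and 54.3 ± 14.5 CPM (edgeR adjusted p = 0.776).

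Of 34 other p53 targets tested, out of 43 listed, 3 rose and 0 fell, and their median log2 fold change was 0.15. Of all tested genes 3.43% rose and 0.707% fell. Every ACS library was above every control for 7 of the 34 and below for 5. The shares over all tested genes were 16.7% and 14.8%. Pmaip1, which encodes the BH3-only death protein Noxa, rose from 1.48 ± 0.573 to 21.8 ± 18.9 CPM (log2 fold change 3.86, edgeR adjusted p = 0.0241, and 2.87 without ACS replicate 1). Bid, another BH3-only protein, rose from 1.78 ± 0.681 to 7.80 ± 3.27 CPM (2.13, edgeR adjusted p = 0.0397). Sesn2, the stress-inducible sestrin, which Atf4 also induces, held 8.63, 6.96 and 7.39 CPM in control and 50.6, 30.7 and 14.7 CPM in ACS libraries (2.06, edgeR adjusted p = 0.0406). Without ACS replicate 2 Bid and Sesn2 did not pass (edgeR adjusted p = 0.0624 and 0.0747), nor did they with a term for ji (0.0518 and 0.0545). Without the ji libraries Bid and Pmaip1 did not pass (edgeR adjusted p = 0.0943 and 0.0609), and without any 1 control none of the 3 passed (0.102 to 0.197). DESeq2 called 1 of these targets lower and limma-voom and limma on FPKM 0. A negative fold change at an unadjusted p under 0.05 was found in 1, against 7.98% of all tested genes.

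Among 9 tested paralogs of the members, 1 (Sesn2) rose with edgeR and 0 with limma-voom. Over all tested genes edgeR called 3.43% higher. The ratio of Sesn2 to Sesn1 FPKM was 0.159, 0.112 and 0.0845 in controls and 1.69, 0.199 and 0.197 in ACS libraries, without overlap (exact permutation p = 0.1, Benjamini-Hochberg adjusted p = 0.3 over 6 ratios). Phlda1 held 6.19, 7.64 and 3.14 CPM in control and 52.2, 8.23 and 13.6 CPM in ACS libraries (log2 fold change 2.12, edgeR adjusted p = 0.107), or 0.95 without ACS replicate 1. Ccng2, the second cyclin G, measured 32.0 ± 7.68 and 15.03 ± 5.65 CPM (-1.09, edgeR adjusted p = 0.108). Plk1, the mitotic polo-like kinase, lay below 1 CPM in every library, and Plk3 measured 5.77 ± 3.89 and 12.2 ± 13.8 CPM (edgeR adjusted p = 0.109 and 0.495).

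Lists tied to the functions of p21 and the Gadd45 proteins had no member called by edgeR. Over all tested genes 3.43% were called higher and 0.707% lower. Of 13 tested Gadd45 partners and MAP kinases, limma-voom and limma on FPKM called 0 and DESeq2 2 higher, and 4 had a positive fold change at an unadjusted p under 0.05, against 15.5% of all tested genes. Mapk14, which encodes p38 alpha and had the highest CPM of the list over both groups, held 107, 89.8 and 113 CPM in control and 309, 376 and 115 CPM in ACS libraries (log2 fold change 1.37, edgeR adjusted p = 0.0984). Mapk12, which encodes p38 gamma, was higher than Mapk14 in control muscle, at 66.8 against 19.5 FPKM on average, and did not pass either (-0.45, edgeR adjusted p = 0.517). Map3k4, named after its values were seen, measured 50.3 ± 4.45 and 37.9 ± 6.73 CPM (-0.41, edgeR adjusted p = 0.344). Of 13 tested cell cycle genes DESeq2, limma-voom and limma on FPKM called 0 too, and 2 had a positive fold change at an unadjusted p under 0.05, against the same 15.5%. The retinoblastoma gene Rb1, with the highest CPM of the list, had a log2 fold change of -0.047 (edgeR adjusted p = 0.923). Of 4 tested CDK inhibitors other than Cdkn1a, the same tools called 0, and 0 had an unadjusted p under 0.05. At that p 15.5% of all tested genes were higher and 7.98% lower.

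Genes of the denervation and Atf4 programmes were also followed, of which only Hdac4 and Atf4 are named above as acting on Gadd45a. Of 13 tested denervation and atrophy genes 2 rose and 0 fell, against 3.43% and 0.707% of all tested genes. Their median log2 fold change was 0.80. Every ACS library was above every control for 6 of the 13 and below for 0, against 16.7% and 14.8% of all tested genes. The groups overlapped for the rest, among them Chrna1 (-0.45), Myh3 (-0.69) and the ubiquitin ligase gene Fbxo32 (0.80). Trim63, the muscle ubiquitin ligase MuRF1, rose from 190.5 ± 10.6 to 1313 ± 635 CPM (2.79, edgeR adjusted p = 0.0153), and the transcription factor Runx1 from 3.62 ± 1.55 to 91.6 ± 77.9 CPM (4.65, edgeR adjusted p = 0.0232). Runx1 was at 3.78 without ACS replicate 1. Of 16 tested Atf4 stress-response genes 3 rose and 0 fell, against 3.43% and 0.707% of all tested genes, with a median of 1.05. They were Sesn2, the amino acid transporter Slc7a5 (from 1.01 ± 0.328 to 59.1 ± 46.8 CPM, 5.87, edgeR adjusted p = 0.00994, and 4.99 without ACS replicate 1) and the phosphatase subunit Ppp1r15a, also called Gadd34 (from 65.4 ± 26.4 to 279.6 ± 111 CPM, 2.10, edgeR adjusted p = 0.0387). Without ACS replicate 2 Ppp1r15a did not pass (edgeR adjusted p = 0.0779), without the ji libraries neither it nor Trim63 did (0.0609 and 0.0628), and without any 1 control neither it nor Trim63, Runx1 or Slc7a5 did (0.0701 to 0.193). Both lists had 0 lower calls with DESeq2, limma-voom and limma on FPKM. In the stress-response list 1 of 16 had a negative fold change at an unadjusted p under 0.05, against 7.98% of all tested genes. Hdac4 held 43.8, 34.1 and 29.4 CPM in control and 51.1, 100.1 and 71.1 CPM in ACS libraries, and Atf4 222, 233 and 245 and 507, 369.9 and 258 CPM. Neither passed (edgeR adjusted p = 0.0876 and 0.221), and both were named after their values were seen.

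**Figure D4:**
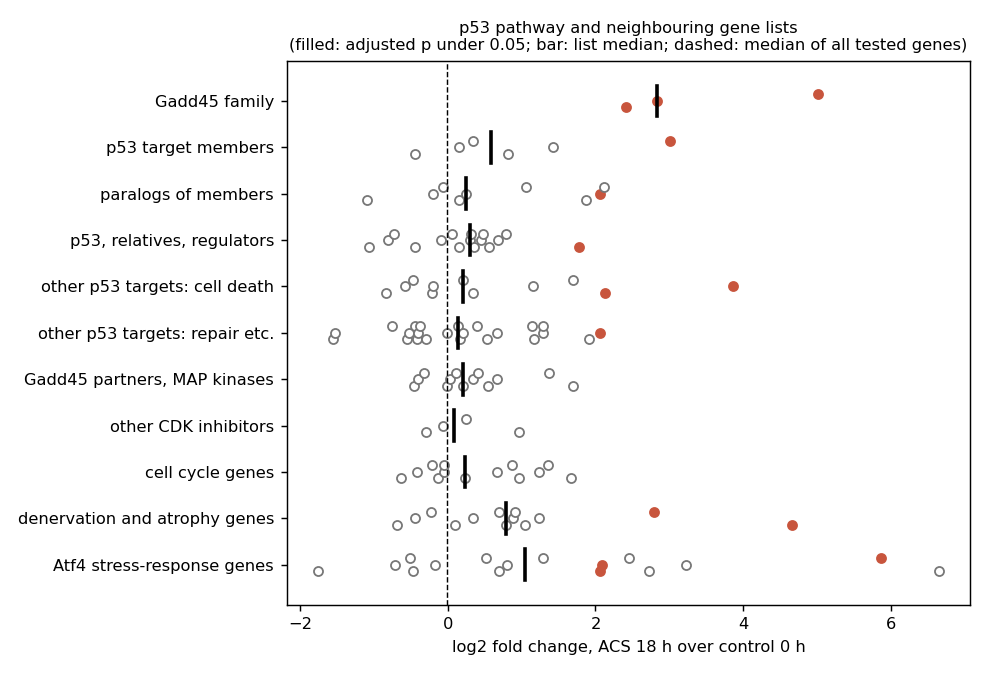
edgeR log2 fold change of every tested gene in each list (points, filled where adjusted p was under 0.05), with list medians as bars and the median of all tested genes as a dashed line; a gene can stand in 2 lists. The Gadd45 family has its median at 2.83, and the other p53 targets at 0.21 (cell death) and 0.14 (repair and other roles).

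The tested genes whose pattern over the 6 libraries lay nearest to each called member were found by the root mean square difference of centred log2 CPM. For Gadd45a they were Rrad, a small GTPase (0.29), and the cytokine receptor gene Csf2rb (0.31). Rrad held 8.78, 14.3 and 10.2 CPM in control and 605, 152 and 60.6 CPM in ACS libraries, with the ACS libraries in the same order as for Gadd45a. For Gadd45g they were the cell-surface proteoglycan gene Sdc4 (0.23), at 37.2, 31.8 and 61.1 and 238, 520.2 and 265 CPM, and the TWEAK receptor gene Tnfrsf12a (0.25). For Cdkn1a they were the transcription factor Foxo1 (0.37), at 30.3, 24.9 and 49.6 and 401, 565 and 177 CPM, and Angptl7 (0.37). For Gadd45b they were Card14 (0.37) and AABR07060862.1 (0.37), both under 3 CPM in every library. These likenesses are descriptions over 6 libraries of 2 groups.

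Summed levels of neutrophil markers were also higher in ACS muscle. The 14 neutrophil markers summed to 2.85 to 8.96 CPM in controls. In ACS libraries 1, 2 and 3 they summed to 539, 49.96 and 100.3 CPM. Of the 9 tested, 9 were called higher, against 3.43% of all tested genes. Markers near 0 in controls, such as Trem1 and Il1r2, could pass the low-count filter only through their ACS counts. The 9 calls are therefore no separate support for a rise. Ngp, Camp, Elane, Mpo and Fcgr3a did not pass the filter and lay under 1 CPM in every library. Camp and Elane were at 0 in all controls. The 14 macrophage markers summed to 59.9 to 97.4 CPM in controls and to 1881, 199 and 144 CPM in ACS libraries. Lyz2 alone held 22.2, 36.6 and 23.8 CPM in controls and 1553, 94.2 and 78.0 CPM in ACS libraries. Of the 13 tested, 1 was called higher, against the same 3.43%. Every ACS library was above every control for 7 of the 13, against 16.7% of all tested genes. For 1, Adgre1, every ACS library was below, against 14.8%. Red cell markers summed to 661 to 1861 CPM in controls and to 16558, 2895 and 6352 CPM in ACS libraries, with 2 of 6 tested members higher. At an unadjusted p under 0.05 this was 6 of 6, against 15.5% of all tested genes. Fibroblast markers summed to 717 to 1101 CPM in controls and to 2356, 2426 and 3009.6 CPM in ACS libraries. In 4 of 8 tested members every ACS library was above every control, against 16.7% of all tested genes, and edgeR called 0. Col1a2 was at 0 in all 6 libraries. Satellite cell markers summed to 109.6 to 146 CPM in controls and to 270.0, 572 and 314 CPM in ACS libraries. Sdc4 alone held 37.2, 31.8 and 61.1 CPM in controls and 238, 520 and 265 CPM in ACS libraries. Of the 6 tested, Sdc4 and Myf5 rose and Myod1 fell (-1.28, edgeR adjusted p = 0.0439). The median log2 fold change of the 6 was -0.60. ACS replicate 1 had the highest sums of the ACS libraries for neutrophil, macrophage and red cell markers. The same held for endothelial, smooth muscle and pericyte, Schwann cell and lymphocyte markers. Among members, ACS replicate 1 was the highest for Gadd45a and Plk2 but not for Gadd45b, Gadd45g or Cdkn1a. The part of these cell types in the members' changes was not tested.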

How the data were processed

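Ribosomal RNA was removed before sequencing, per the labels' protocols. The authors deposited 1 table with read counts (whole numbers) and FPKM for each gene and library. It goes back to HISAT2 2.0.4, StringTie 1.3.0 and build Rnor 6.0, per the submitters' processing notes. How reads were assigned to genes, and whether by strand, is not stated in the labels or the table, so reads of overlapping or antisense genes cannot be told apart. The deposited FPKM equalled the count over 1 length per gene and the library total, to within 0.00890% in 11174 genes.

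edgeR 4.0.16 kept genes with filterByExpr (at least 10 counts in enough libraries and 15 in total), scaled them by TMM and tested them with the quasi-likelihood F test, with Benjamini-Hochberg adjustment over all 12873 genes. SEs came from the F statistic and intervals from its t quantile. Alternatives used DESeq2 1.42.0 and limma 3.58.1 in R 4.3.3. The fits were also run on simulated counts, drawn without a ji difference or a library that stands apart. That run therefore does not cover these features of the data, and its outcome is not reported here. Permutation tests used log2(CPM + 1) for members and log2 ratios of FPKM. The members and the 21 gene lists (248 of 263 entries matched a symbol) were chosen with earlier results of these data known. Genes named were the members, up to 3 called genes of a list or its most abundant one, any paralog or p53 regulator, and the 2 nearest in pattern. Named outside these rules were Mapk12, Map3k4, Atf4 and some genes of the denervation and cell type marker lists. A planned protein comparison was not run, and 1 gene of the regulator list is not reported here. No 2 libraries agreed within sampling noise (chi-square per degree of freedom 38.2 or more).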

Additional observations from a re-analysis of the deposited data

How the results depend on the processing

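Over 18 alternatives the log2 fold changes of Gadd45a (3.54 to 5.49), Gadd45b (1.73 to 2.66), Gadd45g (2.52 to 3.31) and Cdkn1a (2.39 to 4.23) stayed above 0, and they passed the threshold in 15, 12, 15 and 10 of them. Plk2 passed in 2 and the other 4 members in 0. The number of members called higher was 4 in the main fit, 2 with limma on log2(FPKM + 0.1), and 0 to 4 with 1 library left out. DESeq2 called Plk2 as well. The call of Cdkn1a was lost with library totals, with the replicate block and with a ji term. That of Gadd45b was lost with limma on log2(FPKM + 1) and without the ji libraries. Genes of the whole table called higher numbered 442, 755 without the filter, 1316 with DESeq2, 262 with limma-voom, 249 with limma on log2(FPKM + 1), 199 with log2(FPKM + 0.1), 248 with a ji term, 171 without the ji libraries and 0 to 1286 with 1 library left out. Genes called lower numbered 91, 228 with library totals, 153 without the filter, 428 with DESeq2, 268 with limma on log2(FPKM + 1), 32 with a ji term, 30 without the ji libraries and 0 to 398 with 1 library left out. Without control replicates 1, 2 and 3 edgeR called 0 genes, while 2075, 2063 and 2289 had an unadjusted p under 0.05. The cause was not tested.

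Signs turned for some genes that were not called. Ccng1 (0.15) was at -0.13 with library totals, -0.25 and -0.25 with limma on log2(FPKM + 1) and log2(FPKM + 0.1), -0.14 without the ji libraries, -0.049 without control replicate 1 and -0.18 without ACS replicate 3 (-0.18 to 0.42 with 1 library left out). Sesn1 (0.35) was at -0.21 and -0.25 in these limma fits and -0.41 without ACS replicate 2 (-0.41 to 0.75 with 1 library left out). Mdm4 (0.15) was at -0.20 with library totals, -0.19 and -0.19 in the limma fits, -0.052 without control replicate 1 and -0.039 without ACS replicate 1 (-0.052 to 0.34 with 1 library left out). Cdkn1b (-0.067) was at 0.26 without the ji libraries, 0.029 without control replicate 3 and 0.11 without ACS replicate 3. Without ACS replicate 1 Rb1 was at 0.078 (-0.17 to 0.078 with 1 library left out) and Plk3 at -0.46 (-0.46 to 1.45 with 1 library left out).

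Libraries with the same replicate number correlated at -0.063, 0.011 and 0.040 in their deviations from group means. With 3 libraries in each group this cannot decide if they were paired, and both replicates 3 also carry the letters ji. With the replicate block 442 genes were higher and 63 lower, 3 members were higher, and Cdkn1a was at 3.11 (edgeR adjusted p = 0.0570). Each member had 83 or more counts in every library, and the part of depth in the calls was not tested.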
